A study of Homo sapiens with 10 samples.

Results

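The tubulin genes considered here are the 10 protein-coding genes TUBA1A, TUBA1B, TUBA1C, TUBB, TUBB2A, TUBB2B, TUBB3, TUBB4B, TUBB6 and TUBG1. They were read from poly(A) 3′-seq, an assay that sequences inward from the poly(A) tail and so piles reads up just before the site where a transcript was cut and polyadenylated. The deposited data are 1 list of peaks, and the tubulin peaks are those whose summit (the base with the most reads) lay in the GENCODE 44 body of a member or up to 600 bp past its 3′ end. This rule took 32 of 178837 deposited peaks, of which 178392 lie on the assembled chromosomes. All 10 genes held at least 1 such peak, as did 77.2% of the 20033 protein-coding genes.

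The cells were IMR-32, a human neuroblastoma line, infected with lentiviral pLKO.1 short-hairpin vectors and kept in puromycin before RNA was taken. The groups were knockdown of CDK12 with hairpin sh22 (2 libraries) or sh98 (2 libraries), knockdown of CDK13 with hairpin sh701 (2 libraries) or sh704 (2 libraries), and the control hairpin against GFP (2 libraries). All 10 libraries thus carried a hairpin and were selected, and the labels call the duplicates biological. CDK12 and CDK13 are kinases of the RNA polymerase II tail. The authors merged the reads of the 10 libraries before calling peaks, so each value below is 1 pooled value without a replicate spread, no tubulin peak can be compared between knockdown and control, and the knockdown itself cannot be checked.

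Microtubules are hollow polymers of α- and β-tubulin heterodimers, and γ-tubulin in ring complexes starts their growth. Vertebrates make several α and β isotypes from separate genes with very similar coding sequence, so that the 3′ untranslated regions (UTRs) are where the mRNAs differ most. In neurons and neuroblasts microtubules fill axons and dendrites, and βIII-tubulin, the product of TUBB3, is the usual neuronal marker of the family. A transcript end is set by cleavage a short way after a hexamer, most often AATAAA or its variant ATTAAA, and an oligo(dT) primer can also anneal to a run of A inside a transcript, which gives reads that mark no end.

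In 8 of the 10 tubulin genes the tallest peak lay in the 3′ UTR, and in TUBB2A and TUBB6 a taller one lay at the end of a gene on the other strand. Of the 32 peaks, 12 had the summit in a 3′ UTR. Of these, 9 had a −log10 q-value of at least 20 (q is the authors' adjusted p-value for the pileup against local background). Of the other 20 peaks 2 did. Neither this comparison nor the count of tallest peaks was made over all protein-coding genes, so neither is read as a tubulin trait. By position, 12 peaks were terminal, meaning that the summit fell between 200 bp before and 600 bp after an annotated transcript end, 5 lay in other exonic sequence, 15 in introns and 0 elsewhere past the end. Of the 10 genes 9 held a terminal peak, beside 68.7% of all protein-coding genes, and 8 held one at −log10 q of at least 20, beside 34.5%. The exceptions were TUBB2B, whose main peak had its summit 242 bp before the nearest annotated end and so outside the window, and TUBA1C, at 17.8. For TUBB2A the strong terminal peak lay at the end of a neighbouring gene on the other strand and reached no annotated TUBB2A end. Without such peaks the count was 7 of 10. TUBB4B is still counted there, as its peak covers its own end as well as that of a gene on the other strand.

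**Figure D1:**
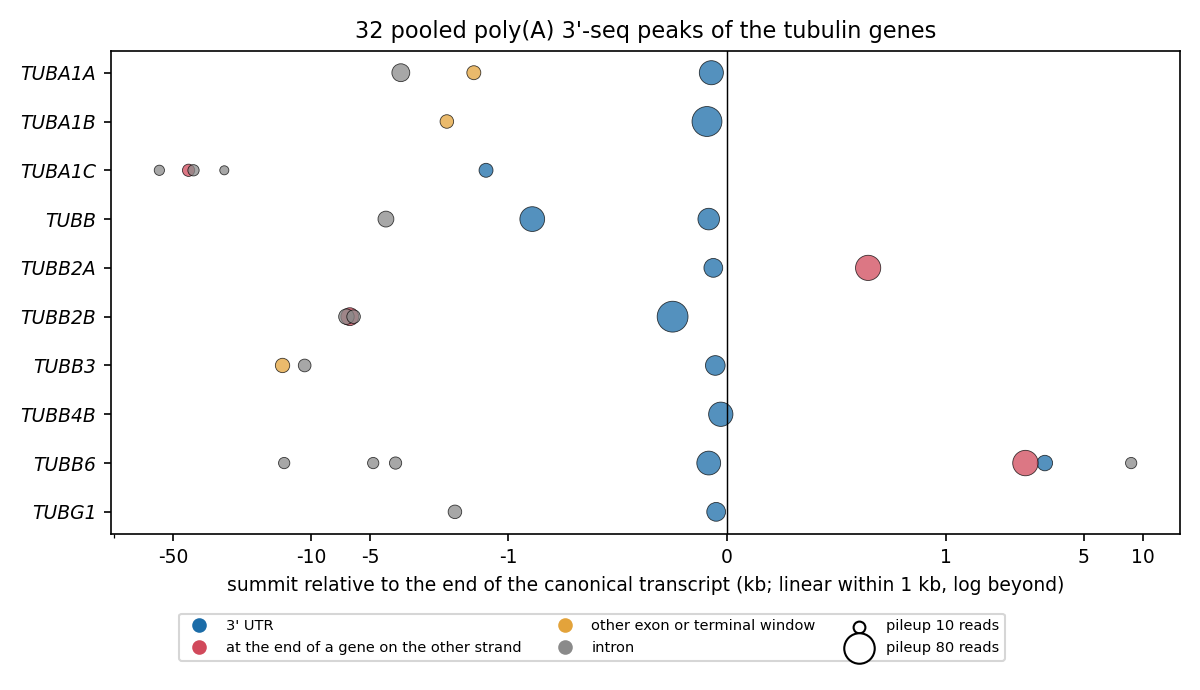
Each circle is 1 of the 32 pooled peaks, placed by the distance of its summit from the end of the canonical transcript in kb (linear within 1 kb of the end, logarithmic beyond) and sized by summit pileup in reads. Colours mark summits in a 3′ UTR, peaks at the end of a gene on the other strand, other exonic or terminal summits, and introns; the TUBB4B peak, at its own end and that of a gene on the other strand, is drawn with the 3′ UTR peaks. The large blue circles sit close to the end in most genes. TUBB has a second one 889 bp upstream, and TUBA1C has its only one 1292 bp upstream.

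Hexamers near annotated ends of the tubulin genes, and at the upstream TUBB peak, are shown first, since each strong peak is read against them. Each line gives 30 bases of the gene's own strand in GRCh38 (genome hg38), 5′ to 3′, starting with the hexamer in capitals.
TUBA1A, minus strand, chr12:49184792-49184821: AATAAAgtattccctgtcttaaatgaattc
TUBA1B, minus strand, chr12:49127774-49127803: AGTAAAgtcattaacatcaaaagctttgtt
TUBA1C, plus strand, chr12:49273309-49273338: AATAAAattgaagtttccattttaaatgtc
TUBB upstream site, plus strand, chr6:30724558-30724587: AATAAAtacttgtttgttgaatgtctcctc
TUBB canonical end, plus strand, chr6:30725402-30725431: AATAAAtgggaattgaaaaaagctgcgaga
TUBB2A, minus strand, chr6:3153659-3153688: AATAAAaaagcatgtgtagaaaaccttgtg
TUBB2B, minus strand, chr6:3224268-3224297: AATAAAtattagttgaaaaaatgtctactt
TUBB3, plus strand, chr16:89936070-89936099: AATAAAtctattgctgtcagatacccttgc
TUBB4B, plus strand, chr9:137243688-137243717: ATTAAAgcattttcatagtgtgtggtttcg
TUBB6, plus strand, chr18:12326544-12326573: AATAAAatactaaacgtgtgtcttcatctc
TUBB6 far end, plus strand, chr18:12329804-12329833: ATTAAAtacagttactcagcaaagtctatt
TUBG1, plus strand, chr17:42615215-42615244: AATAAAgcactggatataaatcaagtcact

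The search covered the gene's strand only, with AATAAA and ATTAAA as the core pair, and overlapping matches were kept apart. The other 10 hexamers were variants of AATAAA in the first base (CATAAA or GATAAA or TATAAA), in the second (ACTAAA or AGTAAA), in the third (AAGAAA), in the fourth (AATGAA) or in the base after that (AATACA or AATAGA or AATATA). At the canonical transcript end, all 10 genes had any of these 12 hexamers starting 10 to 35 bases before the last base, as had 85.3% of protein-coding genes. A core hexamer stood there in 8 of 10, beside 74.3% of protein-coding genes. The members without one were TUBA1B, with AGTAAA 21 bases before its end, and TUBB6, whose strong peak belongs to an annotated end further upstream that follows AATAAA by 19 bases. Read from the peaks, 8 of the 12 terminal tubulin peaks had a core hexamer in the 50 bases before the 3′ edge of the interval, and 51.3% of the 30419 terminal peaks of protein-coding genes had one. In the 50 bases past the summit it was again 8 of 12, beside 39.2%. A match is a match of letters and was not tested for use.

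Among the α-tubulin genes, TUBA1B had the most reads at its end and TUBA1C the fewest. TUBA1B, a broadly expressed α isotype, is on the minus strand of chromosome 12. Its 3′ UTR peak at chr12:49127780-49128094 had a summit pileup of 77 reads (exact 95% Poisson interval 60.8 to 96.2), a fold enrichment of 21.5 over the local background and a −log10 q of 77.4. These intervals cover counting error only and take the pileup as a plain count of reads. The downstream edge of the peak lay 2 bp past the canonical end, and 0 of the next 10 genomic bases were A. By pileup it stood above 99.7% of the 13327 protein-coding genes with a 3′ UTR peak. The other TUBA1B peak, in a noncoding exon of an alternative transcript, had a pileup of 14, a −log10 q of 4.53 and 8 A in the 10 bases downstream.

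TUBA1A, the main α isotype of developing neurons, had its strongest peak at chr12:49184700-49185148. The summit pileup was 49 reads (36.3 to 64.8), the fold 12.1 and the −log10 q 36.7. The interval was 449 bp wide, covered 3 annotated ends of the gene and stopped 14 bp short of another. The summit lay 71 bp before the canonical end, which follows the AATAAA shown above by 26 bases, and a second AATAAA lay 35 bases before the far edge of the interval. A weak second terminal peak belonged to a noncoding transcript (pileup 15, −log10 q 4.23, with AATAAA 25 bases before the edge). An intronic peak reached 26 reads and a −log10 q of 13.3, but it lay in the terminal window of TUBA1B-AS1, a long noncoding RNA on the other strand, and the list gives no strand to assign it.

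TUBA1C, another widely expressed α isotype, had a single 3′ UTR peak, at chr12:49273227-49273338. Its pileup was 15 reads (8.40 to 24.7), the lowest main peak of the 10 genes, with a fold of 12.03 and a −log10 q of 17.8. The fold was close to that of TUBA1A (12.1) at a lower local background, 0.33 reads against 3.13. The peak's edge was 1262 bp short of the canonical end and 4 bp past an annotated shorter end, and no peak lay at the canonical end itself. This end follows an AATAAA by 25 bases. The rule gave TUBA1C 4 more peaks, all in introns of longer transcripts and upstream of its canonical transcript, with pileups of 7, 11, 9 and 5 reads.

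Among the β-tubulin genes, TUBB2B had the tallest peak of all 10 members. TUBB2B, a neuronal β isotype needed in cortical development, had a peak of 429 bp at chr6:3224221-3224649 with a pileup of 82 reads (65.2 to 101.8), a fold of 21.6 and a −log10 q of 81.8. It stood above 99.8% of genes by pileup. The interval covered the canonical end and ran 56 bp past it, but the summit lay 248 bp before that end, and thus also before the AATAAA that lies 20 bases from the end. In the 50 bases past the summit the hexamer found was CATAAA. The remaining 3 TUBB2B peaks (pileups 19, 26 and 14) were intronic in long transcripts, and the strongest of them had its opposite edge (the downstream edge if read on the other strand) 3 bp from the annotated end of a long noncoding RNA there.

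TUBB2A, the near-identical neighbour of TUBB2B on chromosome 6, had a lower 3′ UTR peak. At chr6:3153432-3153795 the pileup was 29 reads (19.4 to 41.6), the fold 9.55 and the −log10 q 19.9, and the summit lay 62 bp before the canonical end. The second TUBB2A peak, at chr6:3152933-3153209, was stronger, with 54 reads and a −log10 q of 53.7. Its far edge lay 564 bp past the farthest TUBB2A end, and its opposite edge lay 14 bp from the end of BPHL, a hydrolase gene on the other strand, with AATAAA on that strand. This peak was taken by the 600 bp reach and its strand is unknown, so that TUBB2A and BPHL cannot be told apart there.

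TUBB, the βI isotype of most tissues, carried 2 strong peaks in 1 3′ UTR. The upstream peak at chr6:30724463-30724617 had 52 reads (38.8 to 68.2), a fold of 11.6 and a −log10 q of 37.5. The peak at the canonical end, chr6:30725295-30725420, had 39 reads, a fold of 8.79 and a −log10 q of 23.7. The summits were 806 bp apart. The edge of the downstream peak fell 2 bp before the canonical end, after the AATAAA shown above, while the upstream peak was 791 bp before the nearest GENCODE 44 end, with an AATAAA of its own past the summit and 59 bases before its edge. It was the only 1 of the 12 3′ UTR peaks that neither covered nor came within 25 bp of an annotated end. The downstream 10 bases held 1 A at the upstream site and 3 A at the canonical end.

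TUBB3 had the highest fold enrichment of the 10 genes at a middling read count. Its peak at chr16:89935981-89936107 had 32 reads (21.9 to 45.2), a fold of 23.2 and a −log10 q of 44.9, with a local background of 0.42 reads. By fold it stood above 97.8% of genes and by pileup above 71.6%. The edge was 10 bp past the canonical end and the AATAAA 27 bases before that end. A readthrough gene model on the same strand, ENSG00000198211, shares this end. A peak in a 5′ UTR exon of longer transcripts (16 reads, −log10 q 9.83) and a peak in an intron (12 reads, −log10 q 6.21, 9 A of 10 downstream) were the remaining TUBB3 peaks.

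TUBB4B, a β isotype common in ciliated and dividing cells, had 1 peak. It was the widest of the 32, with 450 bp at chr9:137243585-137244034, a pileup of 50 reads (37.1 to 65.9), a fold of 18.5 and a −log10 q of 49.7. The summit lay 28 bp before the TUBB4B end, which follows an ATTAAA by 19 bases. The interval ran on for 327 bp past that end, and its opposite edge lay 1 bp from the end of FAM166A on the other strand, with AATAAA there. The whole interval, summit included, thus lay within reach of both ends, and the reads of TUBB4B and FAM166A cannot be told apart in it.

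TUBB6, a more divergent β isotype, had 7 peaks, more than any other member. The main one, chr18:12326454-12326586, had 48 reads (35.4 to 63.6), a fold of 12.8 and a −log10 q of 37.4, and its edge lay 23 bp past an annotated end and 30 bp before the canonical end. A weaker one at the end of a longer transcript, chr18:12329623-12329826, had 19 reads and a −log10 q of 8.69, with its edge at that end and ATTAAA 22 bases before it. Between them lay the tallest TUBB6 peak, 55 reads at a −log10 q of 48.6, in a coding exon of that longer transcript. Its opposite edge was 1 bp from the end of AFG3L2, a mitochondrial protease gene on the other strand, with AATAAA on that strand. The 4 intronic TUBB6 peaks had pileups of 9 to 11 reads.

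TUBG1, the main γ-tubulin gene, had a single peak at its end. At chr17:42615125-42615248 the pileup was 29 reads (19.4 to 41.6), the fold 16.1 and the −log10 q 30.7, with the edge 10 bp past the canonical end and AATAAA 23 bases before it. An intronic peak of 14 reads had a −log10 q of 9.79, and all 10 bases after it were A.

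By pileup, the order of the strongest 3′ UTR peaks was TUBB2B, TUBA1B, TUBB, TUBB4B, TUBA1A, TUBB6, TUBB3, then TUBB2A and TUBG1 with equal pileups, and TUBA1C. The place of TUBB4B may include reads of FAM166A, and that of TUBB2A may include reads of BPHL. The Poisson intervals of each gene and the next in this order overlapped. The intervals of TUBB2B and TUBA1A did not overlap (65.2 and 64.8 as nearest bounds). The median of the 10 genes was 48.5 reads, beside 23 over the 13327 genes, and 6 of the 10 reached the 90th percentile of 44 reads. The order by fold differed, with TUBB3 first and TUBB2A last. As fold is a ratio of pileup to local background, the orders differ through that background by construction. Local background ran from 0.33 at TUBA1C and 0.42 at TUBB3 to 3.58 at TUBB. Of the 10 genes, 6 were above 2 reads, where the median gene had 1.00. By default the peak caller keeps 1 read per position and strand, and the parameters listed in the study's methods name no other setting. Whether the default was used is not stated. If it was, a pileup counts occupied positions rather than reads. The Poisson intervals are then a rough guide only, and so is the gap between TUBB2B and TUBA1A. The pileups are not read as expression levels.

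Some tubulin peaks were wide. Of the 32, 10 were over 250 bp, against 8.74% of chromosomal peaks of every kind. They include the peaks at the ends of BPHL and AFG3L2, and 5 were 3′ UTR peaks (those of TUBA1A, TUBA1B, TUBB2A, TUBB2B and TUBB4B). By width, these 5 stood above 88.7% to 96.8% of the strongest 3′ UTR peaks of protein-coding genes. The strongest 3′ UTR peaks of TUBA1C, TUBB, TUBB3, TUBB6 and TUBG1 stood above 24.1% to 55.7%. Over all terminal peaks the edge lay 5 bp past and the summit 35 bp before the nearest annotated end by median. Among the narrower 3′ UTR peaks, the edge lay within 10 bp of the canonical end in TUBB3, TUBG1 and the canonical peak of TUBB, 30 bp before it in the main TUBB6 peak, 805 bp before it in the upstream TUBB peak and 1262 bp before it in TUBA1C, while the far TUBB6 peak ran to 3210 bp past it.

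Intronic tubulin peaks were lower than the terminal ones, and some were A-rich downstream. Of the 10 genes, 7 held an intronic peak, beside 59.4% of protein-coding genes, and TUBA1C, TUBB6 and TUBB2B held 11 of the 15. The intronic pileups ran from 5 to 26 reads with a median of 11, and the 12 terminal ones from 15 to 77 with a median of 35.5. The median −log10 q of the intronic tubulin peaks was 7.37, beside 6.245 over all intronic peaks of protein-coding genes. The next comparison is with protein-coding genes that held a terminal peak and had 0.8 to 1.25 times the length. TUBA1C's 4 intronic peaks compared with a median of 10, TUBB6's 4 with a median of 4, and TUBB2B's 3 with a median of 0. At least 7 of the 10 bases downstream were A at 6 of the 15 intronic tubulin peaks, where the share over 115058 intronic peaks was 66.8%. At terminal tubulin peaks the count was 0 of 12, where the share over all terminal peaks was 20%.

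The runs below show 4 of the A-rich intronic sites in the genome (GRCh38), for contrast with the hexamer sites above. Each has the last 10 bases of the peak in lower case and the 20 bases that follow in capitals, on the strand of the gene.
TUBA1C, first intronic peak, chr12:49215899-49215928: tctcaccaaaAAAAAAAAAAAAAAAAAAAG
TUBB6, first intronic peak, chr18:12312992-12313021: tctatctcaaAAAAAAAAAAAAAAAGATAA
TUBB3, intronic peak, chr16:89925417-89925446: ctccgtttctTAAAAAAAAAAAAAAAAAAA
TUBG1, intronic peak, chr17:42613426-42613455: aaacaagaacAAAAAAAAAAACTGTTTAAA

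The 7 tubulin peaks with at least 7 A downstream all had a −log10 q under 10 (highest 9.79, in TUBG1), and the 12 3′ UTR peaks had at most 5 A. At −log10 q of at least 20 no tubulin peak was A-rich downstream. The share of A-rich peaks at such limits was not counted over all genes, so this is not read as a tubulin trait. A-rich sequence does not by itself say which peaks came from internal priming, and that was not tested. The 4 intronic TUBA1C peaks lay in long transcripts only: the second of them had its opposite edge 9 bp from the annotated end of a long noncoding RNA on the other strand, and 3 had 9 or 10 A downstream.

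**Figure D2:**
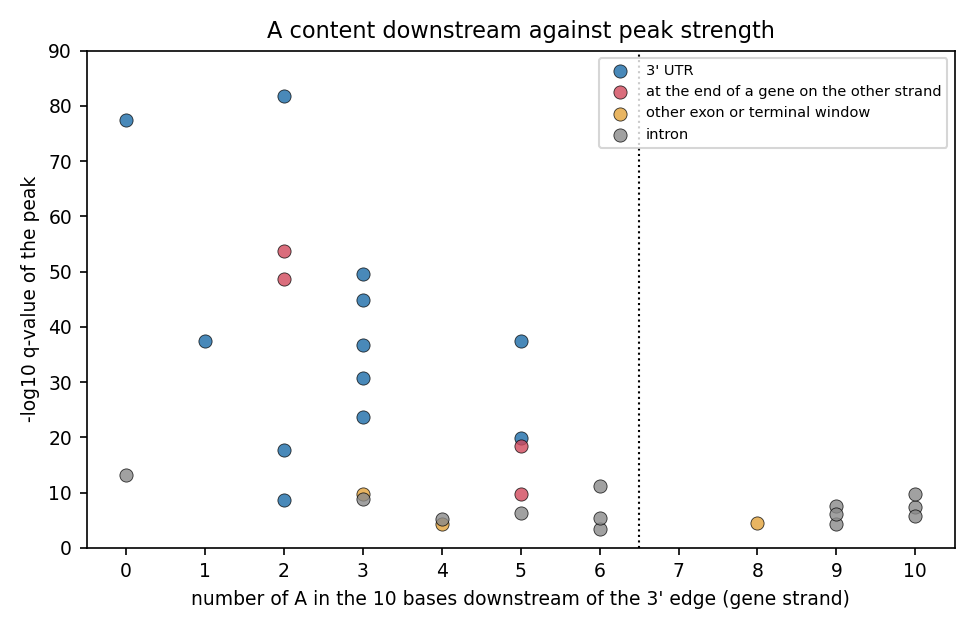
Each point is 1 of the 32 tubulin peaks, with the number of A in the 10 bases downstream of its 3′ edge on the gene's strand on the x axis and the −log10 q-value on the y axis. Points right of the dotted line have at least 7 A; all of these lie below 10, and the 3′ UTR peaks lie at 5 A or fewer.

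Reads were allowed to map to up to 20 places, and tubulin genes have many retrotransposed copies, so each peak's last 100 bases and the 100 bases around its summit were searched against the genome. No 3′ UTR peak had a copy inside another member at 80% identity over at least 90 aligned bases, TUBB2A and TUBB2B included. Elsewhere, 3 of the 12 3′ UTR peaks had a copy of at least 95% identity, and these were both TUBB peaks and the TUBB3 peak. A deposited peak lay at 4 such copies. Outside the 3′ UTRs, the last 100 bases of several peaks matched many places at 80% identity or more. Among the A-rich intronic sites shown above these were 273139 places for TUBA1C, 229801 for TUBB6, 42220 for TUBB3 and 5478 for TUBG1. The fourth TUBA1C intronic peak had 49738 and the TUBB2A peak at the end of BPHL 11441, while the TUBB2B intronic peaks had none. How far these matches shaped the peaks was not tested.

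The upstream TUBB site matched chr13:41384492-41384591 at 98.0%, where a peak had 10 reads and a −log10 q of 8.54, beside TUBBP2. The canonical TUBB end matched chr13:41383684-41383783 at 98.0%, and a peak there had 28 reads and a −log10 q of 31.8, against 39 reads and 23.7 at TUBB itself. The upstream TUBB summit also matched the transcribed pseudogene TUBBP1 at 97.9%, where a peak had 20 reads and a −log10 q of 27.5. The TUBB3 end matched chr6:89303319-89303417, just past the pseudogene TUBB3P1, at 96.0%, and the peak there had 11 reads and a −log10 q of 13.6. How many reads the genes and these copies share cannot be read from the list, so the pileups of TUBB and TUBB3 carry this uncertainty. Of 47 annotated tubulin pseudogenes, 6 had a peak in the body or up to 600 bp past it.

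Peaks of several genes also overlapped in the list. Of the 32, 20 lay in another gene or its 600 bp, and 9 in another gene's terminal window. At 5 peaks an edge lay within 25 bp of the end of a gene on the other strand, and 4 of these, in TUBA1C, TUBB2A, TUBB2B and TUBB6, neither covered nor reached an end of the tubulin gene. The fifth was that of TUBB4B. These counts were not made over all peaks, so none is read as a trait of the tubulin genes. No peak was given a strand by the authors, so whether these 4 belong to the tubulin gene was not tested.

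The other tubulin genes ranged from no terminal peak to one as tall as that at the canonical end of TUBB. Of the 13 remaining tubulins, 6 held a terminal peak, beside 68.7% of protein-coding genes, and 3 at −log10 q of at least 20, beside 34.5%. The median strongest pileup was 20 reads among the 6. They were TUBD1, the δ-tubulin of centrioles (39 reads, 35.1), TUBA4A, an α isotype of platelets and neurons (29 reads, 29.0), TUBE1, the ε-tubulin (25 reads, 22.6), TUBA8 (15 reads, 14.2), the second γ gene TUBG2 (14 reads, 8.17) and TUBA3E (12 reads, 6.62), each with its −log10 q. The neuronal β isotype TUBB4A and the platelet isotype TUBB1 had no terminal peak.

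The genes that fold, anchor and modify tubulin are given beside the shares over all protein-coding genes, 68.7% with a terminal peak and 34.5% with one at −log10 q of at least 20. All 7 folding cofactors had a terminal peak, 5 of them at −log10 q of at least 20, led by TBCA (68 reads, 78.5) and TBCB (35 reads, 40.7). Of the γ-tubulin complex, 9 of 9 had one and 6 passed 20, led by MZT2B (46 reads, 50.6) and TUBGCP2 (38 reads, 45.0), whose proteins form ring complexes with γ-tubulin. Of the enzymes that add or remove modifications on tubulin 20 of 24 had one and 12 passed, led by the deglutamylase gene AGBL5 (64 reads, 63.4) and the acetyltransferase gene ATAT1 (38 reads, 36.8). Of the factors for microtubule dynamics and tubulin mRNA decay 16 of 16 had one and 13 passed, led by the neuronal destabiliser STMN2 (54 reads, 57.1) and the kinesin KIF2C (42 reads, 47.4). The median strongest terminal pileup was 35, 38, 23 and 28 reads among the genes with such a peak in these 4 lists, in the order given, and 23 over the 13761 protein-coding genes with a terminal peak. These lists were not tested against other genes.

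As a check of the cells, all 8 markers of adrenergic neuroblastoma held a terminal peak, beside 68.7% of protein-coding genes. Of these 8, 5 had one at −log10 q of at least 20, beside 34.5%. Below that limit were HAND2 (19.4), DBH (17.7) and ISL1 (6.80). Of 10 markers of other cell types 4 held one, and 0 at −log10 q of at least 20.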

How the data were processed

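IMR-32 cells with knockdown of CDK12, CDK13 or GFP (10 libraries in 5 hairpin groups, biological duplicates per the labels) were profiled with QuantSeq 3′ mRNA REV, which primes at the poly(A) tail. Per the study's methods and the labels, the authors trimmed reads with bbduk, mapped them to GRCh38 with STAR 2.5.1b (up to 20 positions per read), randomly downsampled the knockdown libraries, processed in different batches, to the smallest, merged all libraries and called peaks once with MACS2 2.1.1, reads extended to 100 bp. The deposited fold is the ratio of summit pileup to local background, each plus 1. The deposited p-value and q-value columns are −log10 values from MACS2's Poisson test. The score column deposited by the authors was not used. No depth per library, batch or strand is known.

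Summits were placed on all GENCODE 44 transcripts. Pileup and background were solved from fold and p as the whole number that fits both (worst miss in −log10 p 1.4e-05, next best at least 0.00186); on simulated pairs 100.0% of 1956 pileups were recovered. The 3′ edge is the downstream end of the interval on the gene's strand. Copies were searched with blastn 2.17.0 (100-base queries, at least 90 aligned). Python 3.11.15, pandas 2.3.3, numpy 2.4.6, scipy 1.17.1, pysam 0.24.0, samtools 1.23.1 and matplotlib 3.10.9 were used. No test was run, because the pooled list has no replicates.

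The members, lists and limits were chosen with earlier results of these data known. Named are the 10 members, other tubulins with a terminal peak, the 2 strongest genes of each pathway list, and up to 5 pseudogenes with a peak matching a member's end. The choice of the strongest 3′ UTR peak for ranking, the 25 bp tolerance, the search at canonical ends, and neighbouring genes and other tubulins named without a terminal peak came after the values were seen. The naming of cell markers with a weaker terminal peak also came after. Alternatives were the q limit, reach, window, transcript set, hexamer set and A limit. The coverage tracks were not analysed here.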

Additional observations from a re-analysis of the deposited data

How the results depend on the processing

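The 4 counts were recomputed under each alternative. With −log10 q of at least 20, the tubulin peaks fell from 32 to 11, the terminal peaks with a core hexamer from 8 to 5, and the A-rich peaks from 7 to 0. Measured upstream of the summit in place of the edge, core hexamers were found at 1 terminal peak. A 25-base A stretch within 50 bp was found at 1 peak. With the canonical transcript body only, an alternative chosen after seeing the data, 20 peaks and 4 A-rich peaks were left. The other alternatives kept each count within 1.5 times; the terminal peaks ranged from 8 to 13 over the alternatives run for them, and their lowest value came both from −log10 q of at least 20 and from 1 transcript per gene. Without the 4 peaks at ends of genes on the other strand, also chosen after seeing the data, 28 peaks and 11 terminal peaks were left.

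No paired analysis was possible because peaks were called once on merged reads, with no separate value for any replicate and so none to leave out. Counting error limits single pileups. Reads that also match copies, the missing strand and the unknown treatment of repeat reads limit what a pileup counts.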
